A study of Oryza sativa with 24 samples.

Results

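Inflorescences of 2 mm from the tap mutant and from the wild type (WT) of rice, both in the line named 9522 and both kept at low temperature, were compared in 6 RNA-seq libraries, 3 per genotype, out of 24 in the series. The 6 were taken by genotype, length and temperature as the labels give them. The other libraries hold the same genotypes at 3 mm and low temperature (6 libraries, used here as a comparison in separate libraries), at 2 mm and high temperature (6 libraries), and at 3 mm and high temperature. The labels name the mutant tap or ild and give neither its mutated locus, the degrees of either temperature, the number of plants behind a library, nor the time at which tissue was taken. Whether replicates are separate plants is not stated, and the p-values therefore cover the spread between libraries, which may be technical.

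The young rice inflorescence, or panicle, is a branching shoot tip. Its meristems first give rise to branches and then to spikelets, the units that carry the flowers, and short inflorescences therefore hold many dividing cells and organs at early stages. The series title ties TAP to panicle and spikelet development at high temperature, so the low-temperature comparison shows how far the genotypes already differ under the other condition.

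The 6 libraries held 20420384 to 20992760 counts, and 740 to 932 of the 26480 deposited loci had 0 counts in a library. Levels below are counts scaled to library size (CPM) with TMM factors. A call means an adjusted p under 0.05 in edgeR's quasi-likelihood test over the 12 low-temperature libraries. The deposited identifiers come with no gene names, and 0 of them matched the RefSeq table supplied for the species. Loci are therefore given by identifier, no function is stated, and the gene lists for flower, hormone, stress and cell-type markers could not be applied. For the same reason the labelled tissue could not be checked against its markers, nor the mutated gene in the mutant.

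Genotype was the main axis of variation among these libraries. The first principal component of the 6 libraries held 60% of the variance, with the tap libraries at -46.2, -40 and -39.7 and the WT libraries at 43.8, 42.5 and 39.5. The second held 12.3% and set WT library 1, at 37.2, apart from WT libraries 2 and 3, at -23.4 and -14.7, while the tap libraries lay between -3.17 and 2.48. Single loci varied between replicates to a similar degree in both genotypes, although the WT libraries lay further apart on the second component. Over 16593 loci of at least 5 CPM, the median coefficient of variation was 6.37% in tap and 6.52% in WT.

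Tap and WT differed at 5114 of 23100 tested loci (22.1%), with 2594 (11.2%) higher and 2520 (10.9%) lower in tap. Most of these differences were small. A difference below 1.5-fold was found for 3091 called loci (60.4%), one of 1.5- to 2-fold for 1018, one of 2- to 4-fold for 670, one of 4- to 8-fold for 195 and one of at least 8-fold for 140. Against a threshold of 1.5-fold, 536 loci passed (2.32%). In tap, 269 of them (1.16%) had the higher level and 267 (1.16%) the lower. The libraries of the 2 genotypes did not overlap for 97.7% of the called loci, against 39.4% of all tested loci. The scaling centres the differences, and their median over all tested loci was -0.002.

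The split between directions depended on how large a difference was and on how abundant a locus was. Below 1.5-fold, 1664 loci were higher and 1427 lower in tap, but this excess was lost with upper-quartile scaling (1529 and 1539). At 4-fold or more, 144 (0.623% of tested loci) were higher and 191 (0.827%) lower, and upper-quartile scaling gave 142 and 195. With a minimum mean of 50 counts, which removes low loci, 44 were higher and 86 lower. By level, 118 of 250 called loci below 1 CPM were higher in tap (47.2%), against 396 of 623 at 100 CPM or more (63.6%, and 57.4% with upper-quartile scaling). Between them the share was 41.4% at 1 to 5 CPM, 45.2% at 5 to 20 CPM and 54.2% at 20 to 100 CPM, so it did not rise at every step. The share of tested loci that was called rose with level from 10.7% to 27.3%, and the median difference of the called loci fell from 4.33-fold to 1.23-fold. Low loci were thus called mainly where the difference was large, and the number of counts behind a locus limits what could be called there.

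**Figure D1:**
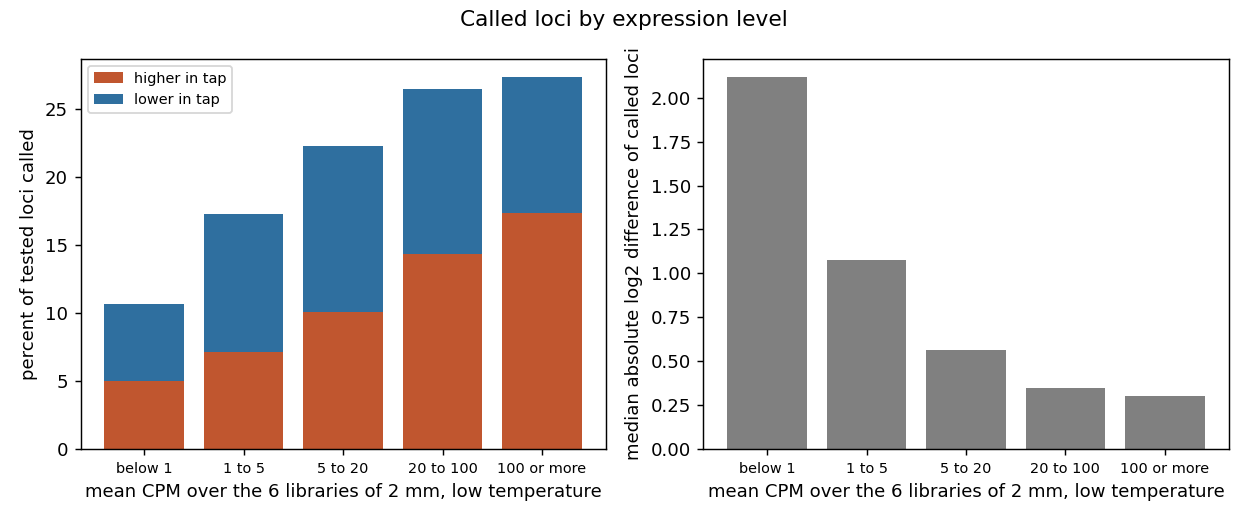
Tested loci of tap against WT at 2 mm and low temperature, grouped by mean CPM over the 6 libraries. The left bars give the percent of tested loci called higher (orange) or lower (blue) in tap, from 10.7% called below 1 CPM to 27.3% at 100 CPM or more; the right bars give the median absolute log2 difference of the called loci, from 2.12 down to 0.3.

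Called loci took up a visible share of the RNA pool. Loci higher in tap held 13.9% ± 0.162 (SD, n = 3) of the counts in WT and up to 18% in tap. The mean share was 4.09 percentage points higher in tap, and the lowest tap library lay 3.87 points above the highest WT library. Loci lower in tap held 9.17% to 9.49% in tap and 12.9% to 13.1% in WT. These loci were chosen on the same libraries. In the 3 mm libraries, which did not enter that contrast, the first group held up to 17.1% in tap and 13.3% to 13.9% in WT, with means 3.32 points apart. The second held 9.6% to 10% in tap and 12.8% to 13.4% in WT.

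At the top of the scale, 6 loci of at least 100 CPM differed at least 4-fold, 3 higher and 3 lower in tap. Their mean levels over both genotypes were 204 to 447 CPM and their log2 differences ran from -4.09 to 2.67. All 6 were called in the same direction at 3 mm.

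The loci named next were taken by a rule that asked for a call at 2 mm, at least 20 CPM in a genotype, libraries that did not overlap between genotypes, and the same sign at 3 mm. The rule left out the stretches of chromosomes 1 and 12 described below. It was met by 1552 higher and 1220 lower loci, of which the 2 with the largest log2 difference in each direction are given.

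LOC_Os03g42235 on chromosome 3 was transcribed in tap and close to silent in WT. Its tap libraries stood at 39, 39.8 and 41.6 CPM and its WT libraries at 0.291, 0.241 and 0.0472 CPM, which came from 6, 5 and 1 counts. The tap libraries were tightly grouped and far above every WT library. The log2 difference was 7.66 ± 0.22 (SE, adjusted p = 9.8e-17), a 203-fold higher level in tap. WT had 12 counts in all, and at counts this low the SE given here can be too small. The same held at 3 mm, where tap had 35.2 ± 0.806 CPM (SD, n = 3) and WT had 0.0974 ± 0.0978 CPM. At 2 mm and high temperature the levels were 10.2 ± 0.572 and 0.0341 ± 0.059 CPM, and the genotype difference was not shown to depend on temperature (log2 difference of differences -0.33 ± 0.69, adjusted p = 0.772).

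LOC_Os01g17396 on chromosome 1 was also far higher in tap, at 35.2, 48.5 and 48.9 CPM against 1.07, 0.241 and 0.472 CPM in WT. WT library 1 was the highest of the WT libraries, and the genotypes did not overlap, which the rule had asked for. The log2 difference was 6.21 ± 0.32 (adjusted p = 1.7e-07), and 6.93 without WT library 1. Its levels at 3 mm were 43.7 ± 3.26 CPM in tap and 0.62 ± 0.399 CPM in WT.

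LOC_Os04g32080 on chromosome 4 showed the reverse. Its WT libraries stood at 25.9, 23.3 and 25.6 CPM, while the tap libraries held 3, 1 and 2 counts, or 0.147, 0.0481 and 0.0983 CPM. The log2 difference was -7.91 ± 0.24 (adjusted p = 3.6e-16), a 241-fold lower level in tap. With so few counts in tap, the SE given here can be too small. At 3 mm it was at 23.9 ± 2.33 CPM in WT and had 3 counts in all 3 tap libraries. At 2 mm and high temperature it was close to silent in both genotypes, with 1 count in tap and 0 in WT, so the low-temperature WT libraries are the ones that transcribe it among these groups.

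LOC_Os09g35020 on chromosome 9 was at 39.4, 25.7 and 13.2 CPM in WT and at 0.783, 0.433 and 0.295 CPM in tap. Its WT libraries spread over a wide range without reaching the tap libraries, an overlap that the rule would not have let through. The log2 difference was -5.68 ± 1.65 (adjusted p = 0.041). The call was lost when any 1 of the 6 libraries was left out (adjusted p = 0.057 to 0.121), and DESeq2 gave 2.4e-05. At 3 mm the WT libraries stood at 53.1, 1.52 and 2.75 CPM, the lowest of them next to the highest tap library at 1.5 CPM, and the locus was not called there (adjusted p = 0.081).

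**Figure D2:**
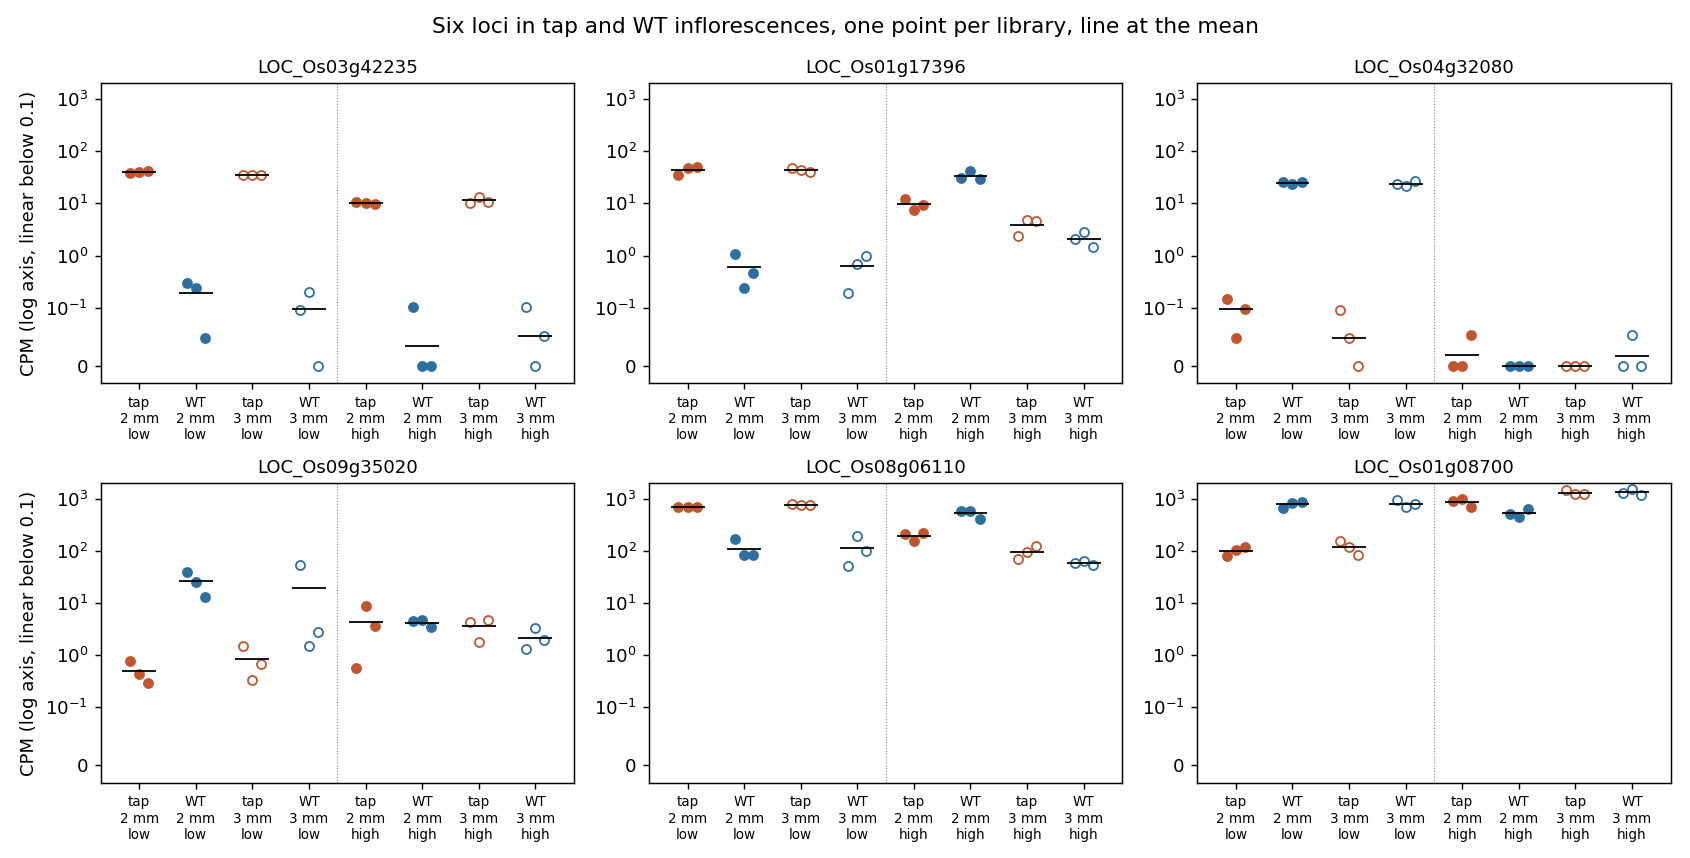
Levels of 6 loci in CPM (log axis, linear below 0.1) in tap (orange) and WT (blue), with 1 point per library and a line at each mean; open points are 3 mm libraries, and the dotted line parts low from high temperature. LOC_Os03g42235 is high in tap in every group shown, and LOC_Os04g32080 is above 1 CPM in low-temperature WT alone. LOC_Os01g17396, LOC_Os08g06110 and LOC_Os01g08700 change which genotype is higher between the temperatures at 2 mm. At 3 mm and high temperature the genotypes overlap for LOC_Os01g17396 and LOC_Os01g08700, and tap lies above WT for LOC_Os08g06110.

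Some loci were present in 1 genotype and at most trace level in the other. At 2 mm and low temperature, 16 loci were on in tap, which means 10 or more counts in each of its libraries and no more than 1 in any WT library, and 16 were on in WT by the same measure. Their highest levels were 25.8 CPM in tap and 26.9 CPM in WT. The same criterion was met again at 3 mm by 9 of the 16 loci on in tap and by 8 of the 16 on in WT. In the genotype where they were off at 2 mm, 5 and 6 of these loci had more than 1 count in a 3 mm library. At 2 mm and high temperature it was met by 10 and 6, and 2 loci of the tap group had at most 1 count in all 6 libraries there. Of the 16 loci in each group, 8 and 10 lie in the 3 stretches described next, which hold 633 of the 23100 tested loci.

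Large differences were more frequent in 3 stretches of the genome than elsewhere. Windows of 5000 identifier numbers were used, since the identifiers number loci along each chromosome. The stretches had been chosen from earlier results of these data, so their rates are a description. The first window of chromosome 1 held 23 loci called at 4-fold or more among 221 tested (10.4%), the second held 23 of 273 (8.42%), and the window of chromosome 12 that starts at number 30000 held 9 of 139 (6.47%). All tested loci gave 1.45%. On chromosome 1 each of the 2 windows had 7 loci higher and 16 lower in tap, while all 9 loci of the chromosome 12 window were higher.

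Outside the stretches the large differences were spread thinly. Of 129 windows with at least 20 tested loci, 29 held none, the median window held 1.15%, and the highest outside the stretches held 4.17%. By chromosome, the share of called loci ran from 20.2% on chromosome 11 to 25.5% on chromosome 1, and the share at 4-fold or more from 0.738% on chromosome 11 to 2.98% on chromosome 1. The stretches held 16.4% of all loci at 4-fold or more, and 280 such loci lay elsewhere.

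**Figure D3:**
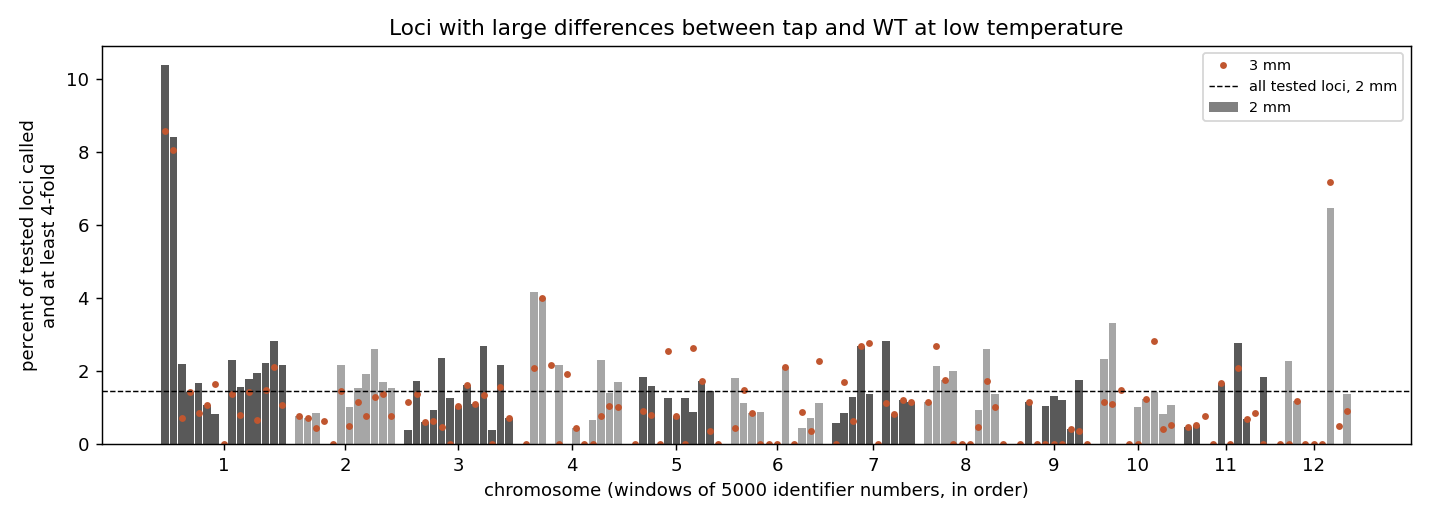
Percent of tested loci called and at least 4-fold different between tap and WT at low temperature, in windows of 5000 identifier numbers along chromosomes 1 to 12; bars give 2 mm, points 3 mm, and the dashed line the 1.45% of all tested loci at 2 mm. The first 2 windows of chromosome 1 (10.4% and 8.42%) and 1 window of chromosome 12 (6.47%) stand above the rest at each length.

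Neighbouring loci tended to move the same way. Among 23074 pairs of tested loci that follow each other in identifier order, 1271 had both loci called, and 806 of these (63.4%) had both in the same direction. The next locus was called after 24.9% of called loci, close to the 22.1% of all loci. For loci at 4-fold or more, 38 pairs had both loci past that size, 31 of them in the same direction. After such a locus, the next was also past 4-fold in 11.3% of cases, against 1.45% of all loci. Outside the 3 stretches that share was 6.07%, against 1.25% of the loci there, and 14 of 17 pairs had the same direction. The strand setting of the counting is not given in the sources used here, so overlapping neighbours may share reads; their part in this was not tested.

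The genotype difference at 3 mm, measured in 6 other libraries, was close to that at 2 mm. There, 4328 loci were called (18.7%), with 2123 (9.19%) higher and 2205 (9.55%) lower in tap, and 428 loci (1.85%) passed against a threshold of 1.5-fold. Both lengths called 3022 loci in the same direction, which is 59.1% of the 2 mm list and 69.8% of the 3 mm list, and 2 loci in opposite directions. Of the loci called at 2 mm, 98.1% had the same sign at 3 mm, against 71.8% of the loci not called at 2 mm. The log2 differences at the 2 lengths correlated across loci at r = 0.82 (Spearman's rho 0.7), a description in which loci are not independent. The comparisons share no library, but they share 1 model and its scaling.

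Loci called at 2 mm alone mostly kept their direction at 3 mm. Their smaller difference there is favoured by the choice of loci, which asked for no call at 3 mm. The 2090 loci called at 2 mm and not at 3 mm had a median log2 difference of 0.42 at 2 mm and 0.21 at 3 mm in the same direction, with a median adjusted p of 0.209 at 3 mm. Each list was smaller at the length that had not chosen it. The 4328 loci called at 3 mm had a median of 0.46 at 3 mm and 0.41 at 2 mm, and the 5114 called at 2 mm had 0.48 at 2 mm and 0.38 at 3 mm. At 4-fold or more, 237 of 335 loci (70.7%) were called in the same direction at 3 mm and 183 were at 4-fold or more at each length.

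The test of the difference itself, genotype by length, called 0 loci in edgeR and 1 in DESeq2. An unadjusted p under 0.05 was found for 867 loci (3.75%), and the smallest adjusted p was 0.395. Leaving out replicate 1 of WT at 3 mm gave 3 loci. For 3207 of the 5114 loci called at 2 mm (62.7%), the 95% interval of the difference between lengths lay within 1.5-fold either way, and for 4175 (81.6%) within 2-fold. At 4-fold or more this precision was reached less often, with 34 of 335 intervals within 2-fold. For the other loci of that size, the interval reached beyond 2-fold.

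**Figure D4:**
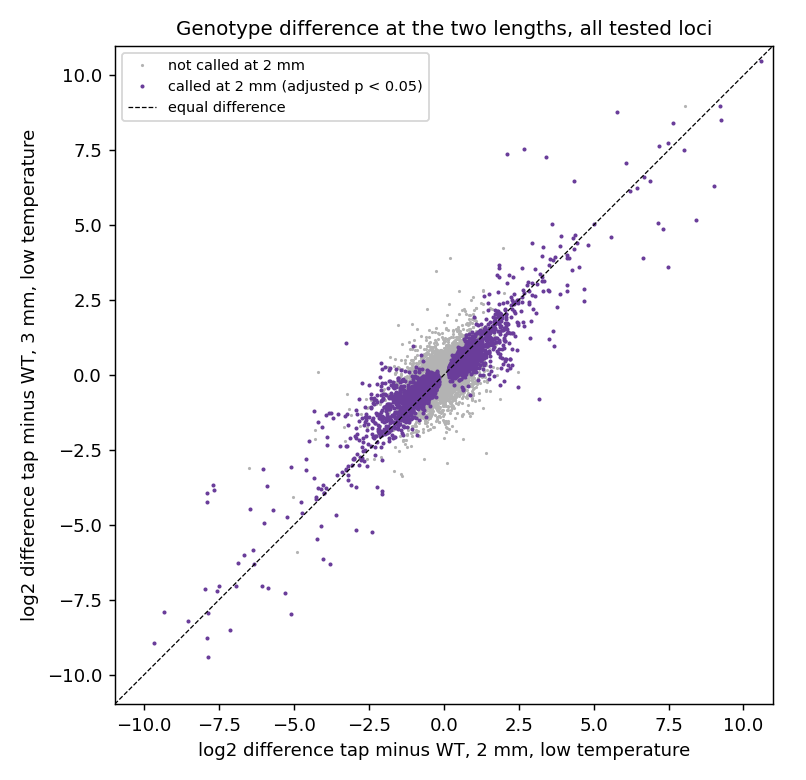
Log2 difference of tap and WT at 2 mm (horizontal) and at 3 mm (vertical) at low temperature for 23100 tested loci; purple points were called at 2 mm, grey points were not, and the dashed line marks equal differences. Of the called loci, 98.1% have the same sign at each length, and the correlation over all loci is 0.82.

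The same loci were followed at 2 mm and high temperature. This comparison used the model over all 24 libraries, in which tap and WT differed at 37% of 23658 loci at 2 mm. The spread between libraries is larger at high temperature, and this model shares 1 estimate of it per locus across both temperatures. It called 3542 loci at 2 mm and low temperature, against 5114 in the low-temperature model. Calls at the 2 temperatures thus rest on unlike estimates of the spread. The mutant's high-temperature columns are named iHT, and they were taken as tap because the remaining high-temperature columns are named WT. Of 5102 loci called at low temperature and tested at high temperature, 1353 (26.5%) were called there in the same direction, 994 (19.5%) in the opposite direction and 2755 (54%) were not called. For comparison, 18.4% of all tested loci were called higher and 18.6% lower in tap at high temperature. The genotype by temperature difference itself was called for 2406 of the 5102 loci (47.2%), and for 26.8% of all tested loci. These loci were chosen on the low-temperature libraries, which are also 1 side of that test, so the higher share is a description. No label says that the libraries of both temperatures were grown or sequenced together, so temperature and any separate handling cannot be told apart. The time of day of sampling is not in the labels either, and it could not be compared between genotypes or temperatures.

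At 3 mm and high temperature, where tap and WT differed at 37.1% of loci (19.3% higher and 17.8% lower in tap), 1654 of the 5102 loci were called in the same direction as at 2 mm and low temperature, 736 in the opposite direction, and 2712 were not called. This contrast was added after the values at 2 mm had been seen.

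The calls of the loci of 4-fold or more at 2 mm and high temperature are given by direction and by place. Of 143 higher in tap, 69 (48.3%) were called higher at high temperature too, and 20 (14%) lower. Of 190 lower in tap, 43 (22.6%) were called lower and 32 (16.8%) higher. Of all tested loci, 18.4% were called higher and 18.6% lower there, so opposite calls were no more frequent here than among all loci. In the 3 stretches, 39 of 55 loci (70.9%) kept their direction and 1 turned around, with a median log2 difference of 4.49 at low temperature and 3.55 at high temperature in the same direction. Elsewhere, 73 of 278 (26.3%) kept their direction and 51 (18.3%) turned around, and the medians were 2.64 and 0.15. The difference between these 2 groups of loci was not tested. At 3 mm and low temperature, 53 of 55 and 184 of 280 had been called in the same direction.

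**Figure D5:**
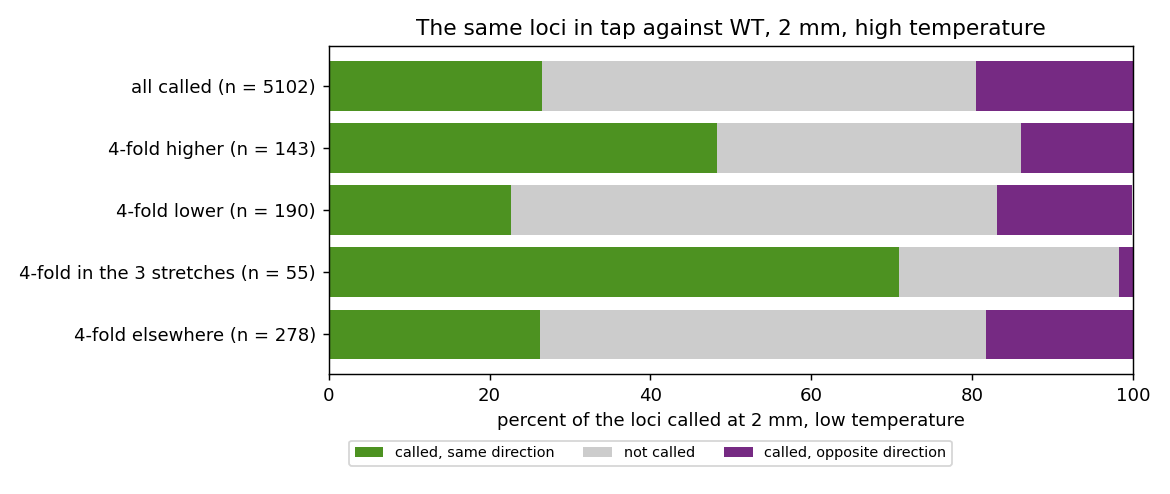
Loci called in tap against WT at 2 mm and low temperature, all and those of 4-fold or more, divided by their call at 2 mm and high temperature: same direction (green), not called (grey) or opposite direction (purple), in percent of the loci tested there (n beside each bar). Of the loci at 4-fold or more, 70.9% keep their direction and 1.82% turn around in the 3 stretches. Elsewhere these shares are 26.3% and 18.3%. Among all tested loci, 18.4% were called higher and 18.6% lower in tap at 2 mm and high temperature.

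The loci of 4-fold or more that turned around at 2 mm had mirrored levels. The 20 loci higher in tap by 4-fold or more at low temperature and called lower at high temperature had median levels of 36.1 (tap) and 4.94 CPM (WT) at low temperature, and of 9.33 (tap) and 27.2 CPM (WT) at high temperature. The 32 loci of the reverse kind had medians of 1.41 and 8.21 CPM at low temperature and of 8.44 and 2.45 CPM at high temperature. In both groups, tap and WT thus changed in opposite directions between the temperatures. All 52 were called in the genotype by temperature test, but they were chosen on these contrasts, so the levels are a description. When looked up at 3 mm and high temperature, 12 of the 52 were called opposite to their low-temperature direction, 7 were called in that direction and 33 were not called. Of all tested loci, 19.3% were called higher and 17.8% lower in tap there. Of the 12, 11 belong to the loci lower in tap at low temperature, and 1 to the loci higher in tap.

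The most abundant locus of each kind is given, chosen after its values were seen. The time of day of sampling is not known for any group. Its part in the levels of these loci, and of the mirrored loci above, was not tested. LOC_Os08g06110 on chromosome 8 stood at 699, 712 and 702 CPM in the tap libraries of 2 mm and low temperature, and at 167, 82.5 and 82.2 CPM in those of WT. The tap libraries lay close together and far above the WT libraries, and WT library 1, which also stood apart on the second component, was the highest in WT. The log2 difference was 2.67 ± 0.47 (adjusted p = 0.0044), and 3.1 without WT library 1. At 2 mm and high temperature the order was reversed, the tap libraries having 210, 153 and 226 CPM and those of WT 586, 577 and 418 CPM (log2 difference of differences 4.1 ± 0.53, adjusted p = 2.4e-05). At 3 mm and low temperature the mean of tap was 770 ± 15.1 CPM and that of WT 115 ± 73.1 CPM. The order was not reversed at 3 mm and high temperature. There the tap libraries lay at 71.6, 94 and 124 CPM, all above the WT libraries at 57.7, 64.1 and 54.2 CPM, but the locus was not called there (log2 difference 0.72 ± 0.37, adjusted p = 0.142).

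LOC_Os01g08700, in the second window of chromosome 1, went the other way. At 2 mm and low temperature its tap libraries were at 78.7, 103 and 120 CPM and its WT libraries at 674, 835 and 873 CPM, a log2 difference of -2.98 ± 0.27 (adjusted p = 9.9e-05). The high-temperature libraries of 2 mm had the higher level in tap, at 897, 1010 and 712 CPM against 523, 451 and 630 CPM in WT (log2 difference of differences -3.68 ± 0.29, adjusted p = 2.1e-08). Among the 55 loci of 4-fold or more in the 3 stretches it is the 1 that turned around, while 23 of all 229 called loci there did. At 3 mm and low temperature tap was at 119 ± 37.8 CPM and WT at 813 ± 124 CPM, without overlap. The genotypes overlapped at 3 mm and high temperature, with 1480, 1230 and 1260 CPM for tap, 1300, 1520 and 1180 CPM for WT and a log2 difference of -0.01 ± 0.2 (adjusted p = 0.995).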

How the data were processed

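The authors deposited unnormalized counts, whole numbers of reads for 26480 loci in 24 libraries. RNA came from an RNeasy extraction and the libraries from a SMARTER mRNA-Seq kit, per the labels' protocols. Trimmomatic, HISAT2, HTSeq and the build IRGSP-1.0 are named per the submitters' processing notes. Versions, annotation release and strand setting: not given in the sources used here, so reads of overlapping, antisense or near-identical loci cannot be told apart.

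Tests used edgeR 4.0.16 (limma 3.58.1, R 4.3.3): quasi-likelihood F tests with robust dispersion, TMM scaling, the default filterByExpr filter and 1 mean per group over the 12 low-temperature libraries, with 8 residual degrees of freedom, 23100 loci and Benjamini-Hochberg adjustment over all of them. Comparisons with high temperature used all 24 libraries, 16 residual degrees of freedom and 23658 of 26410 loci, since 70 loci carry no high-temperature value. The smallest locus sum over the low-temperature libraries was 10 counts. SE is the log2 difference divided by the square root of F. It can be too small where a genotype has few counts. For LOC_Os03g42235 it was 0.22 at 2 mm and 0.24 at 3 mm, but 0.66 for the difference between the lengths. Principal components were taken from log2 CPM (prior count 2). DESeq2 1.42.0, other scalings, filters and sets of libraries were alternatives.

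The model was tested on simulated data with 200 loci changed in 2 mm tap. These were drawn from loci of at least 1 CPM, so the recovery does not apply to lower loci. All other loci had equal means in every group, while in the data 22.1% of loci were called. For tap against WT at 2 mm, over 22817 loci, 71.6%, 91% and 98.5% of loci changed 1.5-, 2- and 4-fold were recovered, with 11 unchanged loci called. For genotype by length the shares were 40.3%, 76.1% and 95.5%, with 4 unchanged loci called.

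The comparison, the stretches and the rule for named loci were chosen with earlier results of these data known. The rule also asked for 12 loci per direction where identifiers are annotated, and 2 where they are not. None of the 321 list members fixed by symbol could be matched.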

Additional observations from a re-analysis of the deposited data

Results flagged for a closer look

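The genotype by temperature test at 2 mm, over all 24 libraries, called 2406 of the 5102 loci called at low temperature (47.2%). Of all tested loci, it called 26.8%. The 5102 loci were chosen on libraries that form 1 side of this test, so the higher share is a description. For the named loci, the log2 difference of tap and WT at low minus that at high temperature is given. Those called were LOC_Os01g17396 at 8.05 ± 0.47 (adjusted p = 2.6e-10), LOC_Os08g06110 at 4.1 ± 0.53, LOC_Os01g08700 at -3.68 ± 0.29, LOC_Os09g35020 at -5.7 ± 1.73 (adjusted p = 0.022) and LOC_Os04g32080 at -9.83 ± 2.7 (adjusted p = 0.0081). LOC_Os08g06110 and LOC_Os01g08700 had been picked for opposite calls at the 2 temperatures, so their calls in this test largely follow from that choice. The size is poorly set for LOC_Os04g32080, which had 1 count in tap and 0 in WT at 2 mm and high temperature. LOC_Os01g17396 was higher in WT at 2 mm and high temperature, at 34 ± 7.03 CPM against 9.54 ± 2.45 CPM in tap (SD, n = 3). At 3 mm and high temperature its tap libraries had 2.33, 4.75 and 4.5 CPM and its WT libraries 2.03, 2.81 and 1.45 CPM, which overlap (log2 difference 0.87 ± 0.36, adjusted p = 0.068). For LOC_Os09g35020 at 2 mm and high temperature, tap stood at 4.34 ± 4.16 CPM and WT at 4.19 ± 0.656 CPM. Groups of 3 libraries are too small for the check for single outlying libraries.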

How the results depend on the processing

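The count of 5114 called loci at 2 mm stayed within 1.5-fold under every alternative run. It was 3542 in the model over all 24 libraries, 5577 in the 6 compared libraries alone, 5130 with DESeq2, and 3734 to 4203 without 1 library of the comparison. The count past 1.5-fold was 389 to 510 without 1 library and 373 with a minimum mean of 50 counts. The count at 4-fold or more moved from 335 to 130 with that minimum, since it removes low loci, and was 292 to 358 without 1 library. At 3 mm the count moved from 4328 to 2768 in the model over all 24 libraries, and was 2975 to 4447 without 1 library. Genotype by length gave 1 locus with DESeq2 and 0 to 3 without 1 library; the cause of the 3 without replicate 1 of WT at 3 mm was not tested. Genotype by temperature gave 5185 to 6691 without 1 library. There the higher share of calls was 50.7% with TMM and 40.7% with upper-quartile scaling.

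Same-numbered tap and WT libraries did not visibly deviate together (correlations -0.026, -0.16 and -0.026 for replicates 1, 2 and 3). Differently numbered libraries gave -0.077 to 0.12. With 3 libraries per group this cannot show whether the number pairs them, and the labels do not say. With the replicate block the counts were 4770 at 2 mm, 568 past 1.5-fold, 337 at 4-fold or more, 3986 at 3 mm, 0 for genotype by length and 6365 for genotype by temperature. Among the 6 named loci, the calls were unchanged under all alternatives run, other than that of LOC_Os09g35020 without any 1 library of the comparison. Depth limits loci below 1 CPM, of which 10.7% were called.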
